A study of Helianthus annuus with 12 samples.

Results

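The sunflower (Helianthus annuus) small RNA novel_sir16402 was followed through 12 small RNA libraries. It is 1 of 15055 entries that the authors classed as siRNA, and 1 of 15900 entries that name a small RNA. It was chosen by its measured values: it had a count above 0 in all 12 libraries and was higher in treated than in control libraries in both roots and leaves. Of the 15055 siRNAs, 1182 (7.85%) had a count above 0 in every library, and novel_sir16402 was compared with these. No sequence, genome position or target of this siRNA was used here, so it is known below by its name and its counts alone.

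All seedlings were of the cultivar R5, which the submitters describe as tolerant to drought. They were grown in soil to the 4-leaf stage, rinsed, and stood for 24 h either in distilled water, as the control, or in water with 15% polyethylene glycol 6000 (PEG), an osmotic agent that makes water harder for roots to take up. Leaves and roots were sampled, so that each treatment had a leaf group and a root group of 3 libraries. The labels do not say that the replicates were separate plants, and p-values therefore speak only of how far these libraries scatter, which may be technical.

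Plant siRNAs are cut by DICER-LIKE enzymes from double-stranded RNA, which RNA-dependent RNA polymerases often make by copying a transcript. They are loaded into ARGONAUTE proteins and guide either the cleavage of matching transcripts or, for the large class that comes from transposons and repeats, the methylation of matching DNA. Their levels can change when their source locus is transcribed differently, and bulk counts of an organ cannot tell fewer cells that hold a small RNA from less of it per cell. The class name in the file does not say to which of these kinds novel_sir16402 belongs.

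The libraries held 20829490 to 33426228 counts in total, of which siRNAs took 1715895 to 2069703 counts in leaf libraries, 874707 to 937641 in roots under PEG, and 280561 to 576434 in roots without it. Control root replicate 3 stood apart: 1576 siRNAs had a count there, against 3381 and 3701 in the other control roots and at least 4766 in each PEG root library, and its TMM factor (the scaling factor for library composition) was 0.292, against 0.774 to 1.41 in the others. The main results that rest on control roots are therefore given also without it.

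In leaves novel_sir16402 was counted 44, 77 and 72 times in the control libraries and 429, 121 and 723 times under PEG. In counts per 1000000 counts of named features after TMM scaling (CPM), these were 5.78, 9.37 and 9.51 in control leaves and 59.4, 17.7 and 103 in PEG leaves. Every PEG leaf library lay above every control leaf library, as for 6.21% of all tested features, but the PEG leaves were far from uniform, with replicate 2 close to the controls and replicate 3 the highest.

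In roots the siRNA was counted 29, 51 and 14 times in control libraries and 632, 476 and 551 times under PEG. The scaled levels were 11.1, 18.4 and 12.02 CPM in controls and 162, 121 and 128 CPM under PEG. The root groups lay wide apart without overlap, which 7.23% of all tested features also showed. The lowest count of all was 14, in control root replicate 3. It was close to 10, the smallest count above 0 of any siRNA. Lower values of such a row may have been written as 0, though their handling is not stated.

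**Figure D1:**
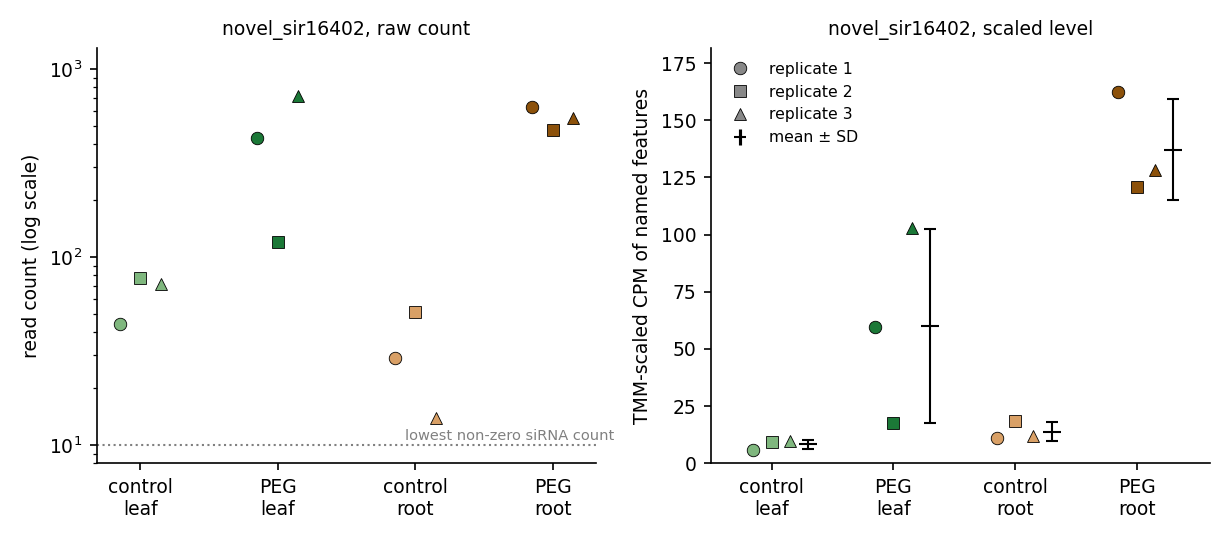
Left, raw read count of novel_sir16402 in each library on a log axis, with a dotted line at 10, the smallest siRNA count above 0. Right, TMM-scaled CPM of named features, with the mean and SD of 3 libraries beside the points. PEG libraries lie above control libraries in both organs, and PEG leaf replicate 2 is the PEG library nearest to the controls.

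Group levels were 8.22 ± 2.11 CPM in control leaves and 60.0 ± 42.6 in PEG leaves, and for roots 13.8 ± 4.01 in controls and 137 ± 22.0 under PEG (SD, n = 3 each). From low to high the order on this scale was control leaf, control root, PEG leaf, PEG root. The spread was largest in PEG leaves, where the highest library was 5.82 times the lowest, against 1.34 to 1.67 times in the other groups. PEG leaf replicate 2, at 17.7 CPM, lay within the range of the control roots, so the control roots and PEG leaves overlapped, while the other neighbours in this order did not.

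Because the siRNA was picked for being higher under PEG, its PEG folds are a description and carry no test. The fitted log2 fold change was 2.86 in leaves (SE 0.58), a 7.27-fold difference, and 3.30 in roots (SE 0.60), a 9.87-fold difference. Set singly against the mean of the control leaves, the PEG leaf libraries stood 7.22, 2.15 and 12.5 times higher, and the PEG root libraries 11.7, 8.74 and 9.28 times above the mean of the control roots. The lowest PEG leaf library was 1.86 times the highest control leaf library, and the lowest PEG root library 6.56 times the highest control root library.

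Single libraries moved these folds. Without PEG leaf replicate 3 the leaf log2 fold change was 2.23, and without replicate 2 it was 3.30, the same size as in roots. The root value was 3.25 without control root replicate 3 and 3.70 without control root replicate 2, the highest control library on this scale. The scaling also mattered in roots, where siRNAs as a class took a larger part of the reads under PEG: with the totals of named-feature counts as the only scaling the root log2 fold change was 4.05, and with the totals of all counts 3.92.

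As reads per 1000000 counted reads of any kind (RPM of all reads), a scale that needs no fitted factor, novel_sir16402 stood at 1.39, 2.40 and 2.17 in control leaves and at 13.5, 3.91 and 21.6 in PEG leaves. Exact 95% binomial intervals cover no more than counting error, since PCR copies of a molecule cannot be told apart. They ran from 3.25 to 4.68 for PEG leaf replicate 2 and from 1.89 to 2.995 for the highest control leaf library. They leave out the scatter between libraries and are no test of PEG against control, which chose the siRNA. In roots the values were 1.39, 2.30 and 0.624 RPM in controls and 25.3, 19.7 and 20.2 under PEG. The interval of the lowest, control root replicate 3, ran from 0.341 to 1.05, so its level is known only coarsely. The ratio of the group means was 6.55 in leaves and 15.1 in roots on this scale, and 6.71 and 9.50 on a scale of siRNA reads alone (RPM of siRNA reads). Of the siRNAs found in every library, 90.2% had a higher mean under PEG in roots in RPM of all reads. In leaves 39.8% did. PEG lay above control without overlap in 34.2% of them in roots and 3.30% in leaves. A higher root level under PEG was thus common on that scale, though these shares do not give its size.

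Among the 1182 siRNAs found in every library, novel_sir16402 had the highest fitted PEG log2 fold change in leaves and also the highest in roots. The median of these siRNAs was 0.04 in leaves and 0.12 in roots, close to the medians of 0.03 and 0.00 over all 10604 features tested. The next highest was novel_sir7931 in leaves (log2 fold change 2.16) and novel_sir13930 in roots (2.02). novel_sir7931 was otherwise unlike it: it rested on 16 to 27 counts in control leaves and 39 to 168 in PEG leaves, and its root level was 2532 ± 2094 CPM in controls and 509 ± 83.5 CPM under PEG. novel_sir13930 had a root level of 6.51 ± 3.38 CPM in controls and 26.0 ± 20.5 CPM under PEG. Over 24 settings of the fit novel_sir16402 was first in roots in 24 and first in leaves in 22. Without control leaf replicate 1 it ranked 2 in leaves, after novel_sir11366, and without control leaf replicate 3 it ranked 4. All settings draw on the same 12 libraries, and some leave out a library of the other organ, which barely moved the fold. The PEG folds were the ground of the choice of this siRNA, so the ranks are a description only.

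**Figure D2:**
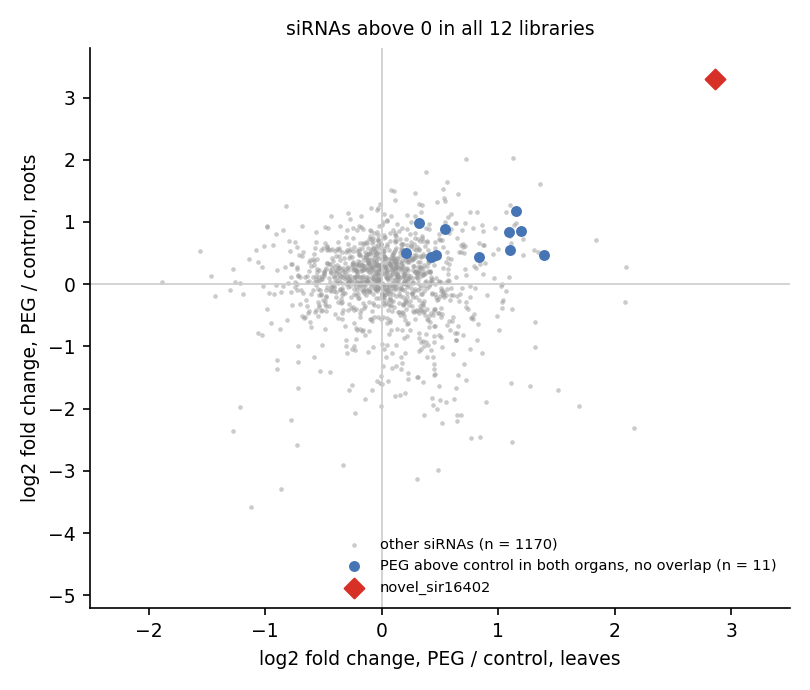
Fitted log2 fold change of PEG over control in leaves (x axis) and roots (y axis) for the 1182 siRNAs above 0 in all 12 libraries. novel_sir16402 (red diamond) lies at 2.86 and 3.30, and blue points are the other 11 siRNAs whose PEG libraries all lay above the control libraries in both organs.

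In 12 of these 1182 siRNAs (1.02%) every PEG library lay above every control library of its organ in both organs on the CPM scale, against 56 of all 10604 tested features (0.528%). novel_sir16402 is in this count by its choice, so nothing is read from it. Within the 12 its smaller PEG log2 fold change, 2.86, was the largest, and the next was novel_sir11334 with 1.15 in leaves and 1.17 in roots. Then came novel_sir12377 (1.19 and 0.86) and novel_sir15533 (1.09 and 0.84), and the remaining 8 had a smaller value between 0.21 and 0.55. Among all 15055 siRNAs, a further 38 met the same ordering but had a 0 in at least 1 library and so fell outside the choice. Of the 1068 siRNAs with a 0 in 1 library alone, 9 met it. These counts are a description only. In those 9, such as novel_sir16955 with 19, 10 and 0 counts in control roots and 62, 32 and 32 in PEG roots, the 0 was that of control root replicate 3.

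The standing of novel_sir16402 within each library moved with treatment. This restates in ranks the PEG rise that chose the siRNA, so it is a description only. In control leaves it had a higher count than 12.2%, 23.0% and 18.7% of the 1182 siRNAs, and in control roots than 12.9%, 30.1% and 19.0%. Under PEG it exceeded 71.7%, 35.0% and 79.4% of them in leaves and 86.0%, 81.6% and 81.7% in roots. Control leaves and control roots thus overlapped in the low part of the ranking, and PEG roots formed a tight set in the upper part. By mean CPM it went from rank 997 of 1182 to rank 363 in leaves and from rank 959 to rank 201 in roots.

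**Figure D3:**
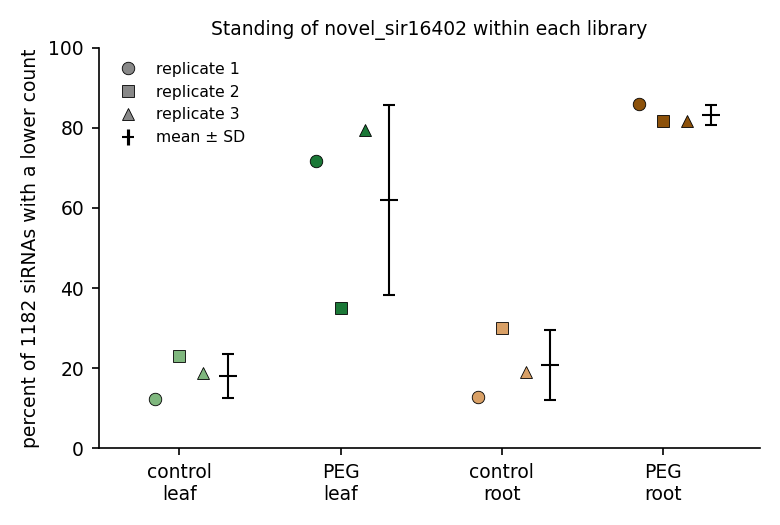
Percent of the 1182 siRNAs above 0 in all 12 libraries that had a lower count than novel_sir16402 in the same library, with the mean and SD of 3 libraries beside the points. Control libraries lie between 12.2% and 30.1%, PEG roots between 81.6% and 86.0%, and PEG leaves spread from 35.0% to 79.4%. The siRNA was chosen for being higher under PEG.

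Its rank by mean CPM over all libraries was 435 of 1182. Its neighbours in that order had other profiles. novel_sir12573, just above it at 55.2 CPM, had PEG log2 fold changes of 0.34 in leaves and 0.78 in roots. novel_sir15596, just below it at 54.6 CPM, had -0.30 and 0.87, but differed more between organs, with root over leaf log2 fold changes of 1.22 in controls and 2.39 under PEG. The PEG folds of novel_sir16402 were the ground of its choice, so they are set beside these only as values.

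The order of the organs was not part of the choice of the siRNA, so its organ difference could be tested. The need for a count above 0 in all 12 libraries did leave out siRNAs absent from 1 organ. In control seedlings the roots stood 1.69-fold above the leaves on the CPM scale (log2 fold change 0.75 with SE 0.56 and a 95% interval of -0.53 to 2.03; adjusted p = 0.285 by edgeR's quasi-likelihood test with Benjamini-Hochberg adjustment over 10604 features). This did not pass the threshold of 0.05, which 23.8% of all tested features passed (5.48% of those tested as higher in roots and 18.3% as lower). Among the 1182 siRNAs 19.6% passed as higher in roots and their median log2 fold change was -0.05, against -4.75 over all features. The 1182 have counts in every root library by definition. Features missing from roots could not enter them, so this contrast with all features follows in part from that filter. On this scale each control root library lay above each control leaf library, as for 26.2% of the 1182 siRNAs. The value was 0.75 without control root replicate 3 and 0.30 without control root replicate 2.

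The direction of this organ difference depended on the denominator. In RPM of siRNA reads, control roots held 56.5, 88.5 and 49.9 and control leaves 22.8, 37.3 and 37.5, so the roots were higher without overlap (65.0 ± 20.6 and 32.6 ± 8.41, SD, n = 3 each, two-sided exact permutation p = 0.1, the smallest that 3 against 3 libraries allow), as for 31.3% of the 1182 siRNAs. In RPM of named-feature reads the order of the means turned, with 8.95 ± 5.38 in control roots and 10.9 ± 2.76 in control leaves, and the groups overlapped (exact permutation p = 0.7). In RPM of all reads it was 1.44 ± 0.836 in control roots and 1.99 ± 0.527 in control leaves, again with overlap (exact permutation p = 0.4). The difference in RPM of siRNA reads, roots minus leaves, was 32.4, and it was 39.9 without control root replicate 3 and 20.7 without control root replicate 2. No organ order of the control level can be given that holds over these scales.

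**Figure D4:**
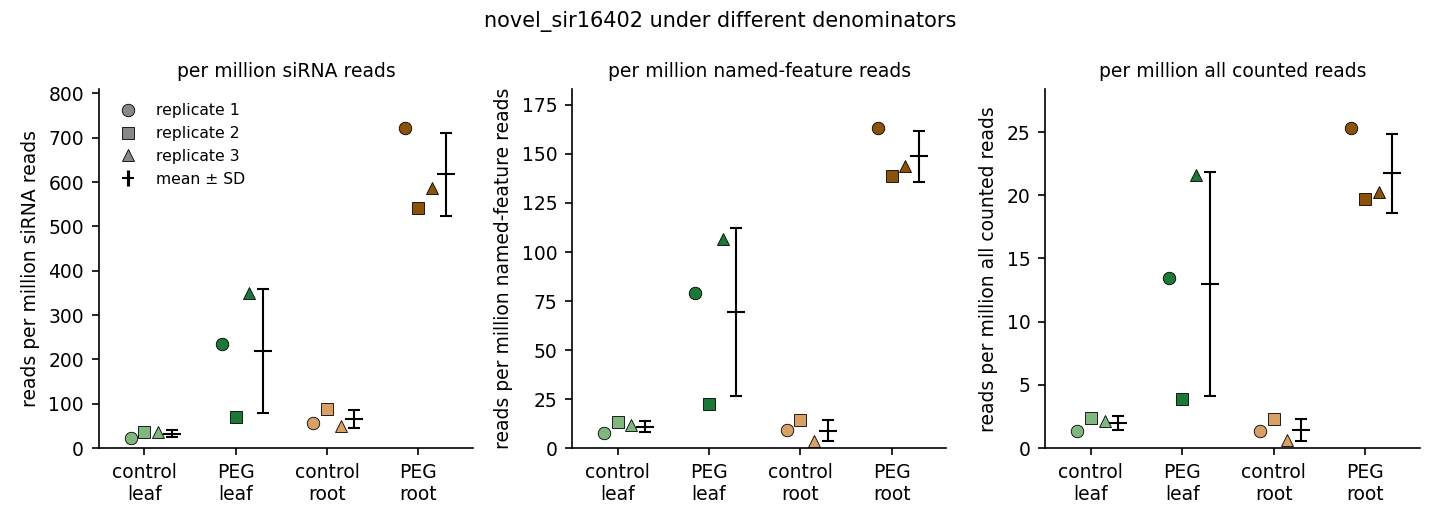
Level of novel_sir16402 by library in RPM of siRNA reads, of named-feature reads and of all counted reads, with the mean and SD of 3 libraries beside the points. PEG libraries exceed the controls of their organ on every scale, whereas control roots lie above control leaves on the first scale only. In RPM of all reads, 34.2% of the siRNAs found in every library also had PEG above control without overlap in roots, and 3.30% in leaves.

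Under PEG the roots stood above the leaves on all 3 denominators, but with a test that did not pass. The CPM ratio was 2.29-fold (log2 fold change 1.19 with SE 0.55 and a 95% interval of -0.07 to 2.46; adjusted p = 0.171 by edgeR), in a comparison where 16.5% of all tested features passed (4.27% of those tested as higher in roots and 12.3% as lower). Of the 1182 siRNAs, which all have counts in every root library by definition, 16.4% passed as higher in roots, and their median was 0.15. In 32.3% of them the CPM of the PEG roots lay above that of the PEG leaves without overlap, as here. limma voom gave 1.50 and passed (adjusted p = 0.0424). In RPM of siRNA reads PEG roots held 723, 542 and 588 and PEG leaves 235, 70.5 and 349, without overlap (exact permutation p = 0.1, two-sided), as for 39.7% of the 1182 siRNAs. In RPM of all reads PEG leaf replicate 3, at 21.6, lay between the root libraries of 19.7 and 25.3, and the groups overlapped (exact permutation p = 0.3). The log2 fold change was 0.76 without PEG leaf replicate 2 and 1.83 without PEG leaf replicate 3, so its size rests on the spread of the PEG leaves.

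The PEG response itself was compared between the organs as the difference of the log2 fold changes. Both effects entered the choice of the siRNA, but not their order. The choice left out siRNAs that rise in 1 organ only or move in opposite ways, which favours a small difference. A test that does not pass is therefore no evidence of equal responses. The difference, roots minus leaves, was 0.44 with SE 0.78 and a 95% interval of -1.35 to 2.23 (adjusted p = 0.99998 by edgeR), in a comparison where 2.03% of features passed. The interval is wide: it reaches from a root response 2.55 times smaller than that of leaves to one 4.71 times larger, so these libraries do not show that the organs respond alike. Without PEG leaf replicate 2 the difference was 0.00, without PEG leaf replicate 3 it was 1.08, without control root replicate 2 it was 0.87 and without control root replicate 3 it was 0.40. With totals of named-feature counts it was 1.39.

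The features whose profile was most like that of novel_sir16402 were sought among the 1449 features of any class above 0 in every library, by the Pearson correlation of log2(CPM + 1) over the 12 libraries. The libraries share 4 groups and their scaling factors, so the coefficients describe likeness and were not tested. The 5 most alike were miR399_1 (r = 0.87, Spearman 0.92), novel_sir5525 (0.85 and 0.83), miR399e (0.84 and 0.78), miR160 (0.83 and 0.73) and novel_sir10839 (0.80 and 0.90). The median over the other siRNAs was 0.10. Within the 6 leaf libraries r was between 0.77 and 0.92 for the 5, and within the 6 root libraries between 0.71 and 0.98. These values come from the libraries that picked the 5, so high values follow in part from the choice.

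miR399 is a microRNA family that rises in phosphate-starved plants and targets the ubiquitin-conjugating enzyme gene PHO2. miR399_1 had 4, 6 and 12 counts in leaves of controls and 13, 12 and 46 in leaves under PEG. In roots it had 5, 11 and 4 counts in controls and 74, 66 and 35 under PEG. Its PEG libraries lay at or above the highest control count in leaves and above it in roots, and its counts are small. miR399e went from 7.09 ± 3.03 to 23.5 ± 13.8 CPM in leaves and from 7.95 ± 5.01 to 21.3 ± 4.10 CPM in roots. Names of 1 family can share near-identical reads, so the split between them is uncertain.

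miR160 targets transcripts of auxin response factors. Under this name the PEG leaves held 15356, 64 and 22598 counts and the control leaves 19, 6 and 1021, and the roots 1138, 2291 and 2010 under PEG against 6, 23 and 2 in controls. The low PEG leaf library was replicate 2, as for novel_sir16402, and the highest was replicate 3 in both. This order was not particular to miR160. In CPM, replicate 2 was also the lowest PEG leaf library for miR399_1, novel_sir5525 and novel_sir10839, though by less, and not for miR399e. Deviations from the group means correlated with those of novel_sir16402 at r = 0.79 over the 12 libraries for miR160, and at 0.57 to 0.66 for the other 4. Such values are raised by the picking of these features over the same libraries, and other features were not set beside them.

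The siRNAs novel_sir5525 and novel_sir10839 moved less. novel_sir5525 went from 12.5 ± 4.62 to 18.6 ± 6.80 CPM in leaves and from 13.1 ± 1.77 to 27.9 ± 8.61 CPM in roots. novel_sir10839 went from 96.8 ± 19.2 to 179 ± 19.9 CPM in leaves and from 169 ± 32.3 to 214 ± 34.9 CPM in roots. Their PEG log2 fold changes were 0.57 and 0.89 in leaves and 1.08 and 0.34 in roots, against 2.86 and 3.30 for novel_sir16402, so likeness in pattern did not mean a change of like size.

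**Figure D5:**
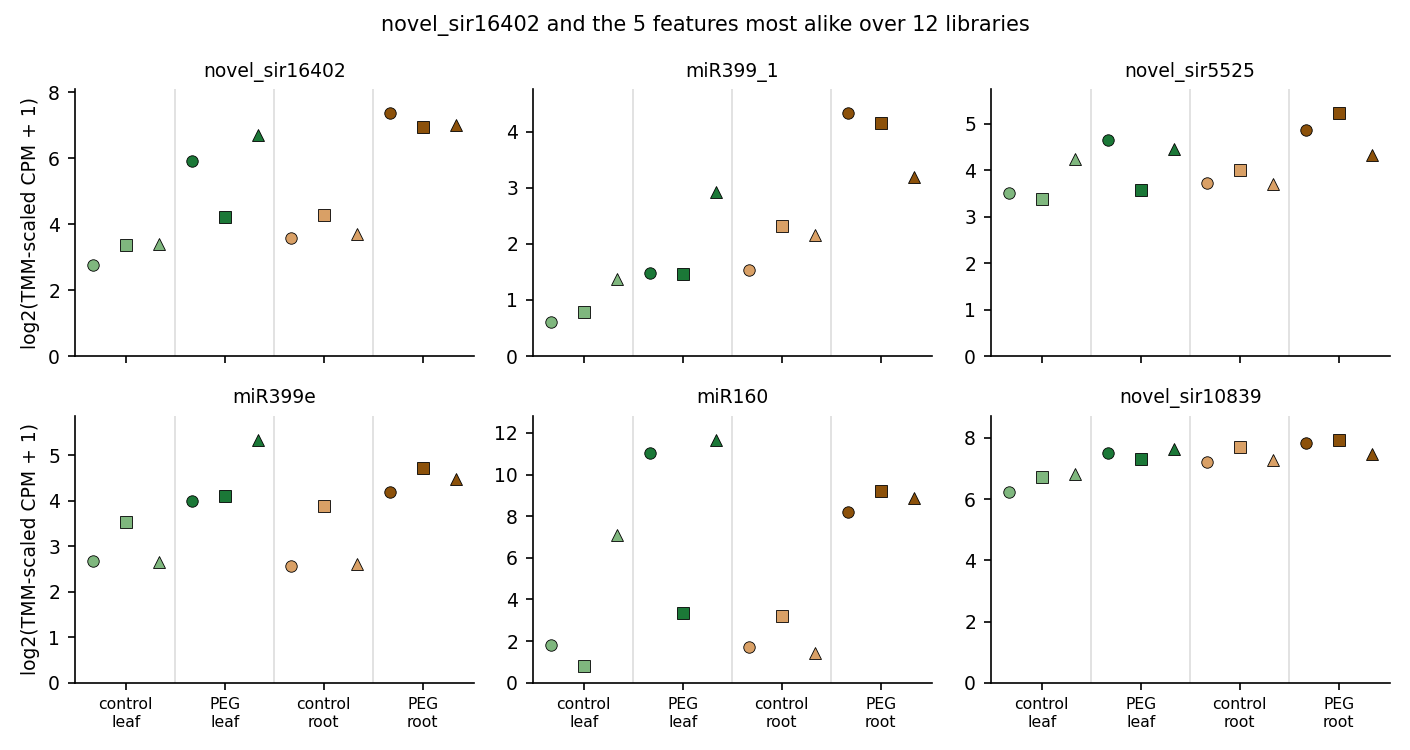
log2(TMM-scaled CPM + 1) by library for novel_sir16402 and the 5 features with the highest correlation over the 12 libraries. Symbols give the replicate number, and the y axes differ between panels. PEG leaf replicate 2 (square) lies lowest among the PEG leaves in every panel except that of miR399e, and most widely for miR160.

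The microRNAs that act on the small RNA machinery were read as the surrounding pathway. miR162 targets DICER-LIKE1, miR168 ARGONAUTE1 and miR403 ARGONAUTE2, and miR390 starts the making of trans-acting siRNAs. Of their 11 names 10 were tested, and in control seedlings 3 passed as higher in roots and 2 as lower (edgeR), where 5.48% and 18.3% of all tested features did. The higher ones carried the name of miR390 and the lower ones of miR168, the most abundant being miR168a-5p (log2 fold change -1.57, adjusted p = 0.00371) and miR168b-3p (-2.11, adjusted p = 0.00123). Under PEG 2 passed as higher and 2 as lower, beside 4.27% and 12.3% of all tested features. With 10 names these counts are a description. For the difference of the PEG effects 0 of the 10 passed in edgeR, DESeq2 or limma voom, with 0 at an unadjusted p under 0.05 in each, where 2.03% of all tested features passed in edgeR. Their median root over leaf log2 fold change was -1.15 in controls and -1.18 under PEG, where novel_sir16402 stood at 0.75 and 1.19. Fitted PEG log2 fold changes, which were not tested, went both ways among names of miR162. miR162-3p had 5.49 in leaves (SE 1.51) and 4.08 in roots (SE 1.48). miR162a-3p had -1.13 in leaves (SE 1.40) and -0.85 in roots (SE 1.40). Here too the split of near-identical reads between names of 1 family is uncertain, so these folds need not be those of the family.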

How the data were processed

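Per the labels' protocols, RNA was extracted with Trizol and libraries followed BGI500 protocols. The authors deposited, in 1 table, whole read counts for every small RNA entry and TPM values. Bowtie2 2.2.9 and Bowtie are named, with no step attached, per the submitters' processing notes. How siRNAs were predicted, the mapping settings and the genome build are not stated in these sources. TPM as deposited matched the count divided by its column total and rescaled in 100% of cells (tolerance 0.0051 plus 0.01% of the value) and was used only for this check. The 3 entries for exons, introns and the space between genes, 79.7% to 86.0% of counts, stayed out of the tests.

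Tests used edgeR 4.0.16 under R 4.3.3 (TMM, glmQLFit, glmQLFTest, a mean per group over 12 libraries) on the 10604 features that reached 10 counts in 3 or more libraries, with Benjamini-Hochberg adjustment and calls at an adjusted p under 0.05. The test was checked on counts simulated with 1 spread for all features. That setting lacks the uneven composition of these libraries, so the check does not speak for it. Intervals use 8 residual degrees of freedom. Shares were compared by exact permutation tests. Alternatives were other scalings, DESeq2 1.42.0, limma 3.58.1 voom, other filters, a replicate block and left-out libraries. Replicates differed by more than sampling noise.

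Same-numbered control leaf and control root libraries deviated together (r = 0.225 to 0.262), unlike PEG leaf and PEG root libraries (-0.222 to -0.166), which the labels do not explain. The siRNA, lists and rules were chosen with earlier results of these data known. Features named beside it were those most alike in profile, next in rank, and the small RNA pathway names; other siRNAs were named after their values were seen.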

Additional observations from a re-analysis of the deposited data

How the results depend on the processing

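The organ difference in controls (log2 fold change 0.75) turned to -0.29 with named-feature totals, -0.47 with totals of all counts and -0.12 with zeros set to 9. As a share (roots minus leaves) it was 32.4 RPM of siRNA reads, -1.98 RPM of named-feature reads and -0.55 RPM of all reads, and 20.7 to 39.9 RPM of siRNA reads with 1 library left out. Under PEG it passed only in limma voom (1.50, adjusted p = 0.0424) of 24 alternatives, and ranged from 0.74 to 1.83 (adjusted p 0.0424 to 0.419). The difference of the PEG effects ranged from 0.00 to 1.39 and did not pass in any of 24 (adjusted p from 0.571 to 1). The PEG log2 fold change in leaves ranged from 2.23 to 3.30 in 23 alternatives. The PEG log2 fold change in roots moved by more than the replicate SD in 4 alternatives. These were named-feature totals (4.05), totals of all counts (3.92), zeros set to 9 (3.95) and control root replicate 2 left out (3.70). With 1 library left out it ranged from 3.16 to 3.70.

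Leaving out 1 library gave 0.30 to 0.90 for the organ difference in controls and 0.76 to 1.83 under PEG. With the replicate number as a block the values were 0.79 in controls, 1.29 under PEG and 0.51 for the difference of effects, and with a replicate block of treatment and number 0.75, 1.51 and 0.75; the block changed no call of novel_sir16402. The counts of features passing changed more: 2521 in controls (506 to 3886 over the alternatives), 1754 under PEG (315 to 2741) and 215 for the difference of effects (0 to 504). Pairing same-numbered libraries, the exact sign-flip p of both organ shares was 0.25, the smallest that 3 pairs allow. Upper-quartile scaling was not run, since the upper quartile was 0 in 1 library. The fit on the 1182 siRNAs alone and the shares of their counts were added after the data had been seen. Low counts of the siRNA limit mainly the control roots, where 14 to 51 counts stand behind each level.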
